A study of Homo sapiens with 12 samples.

Results

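The genes of mitosis, the kinetochore and the spindle were examined as one module in WI-38 lung fibroblasts cultured with and without transforming growth factor beta (TGF-β). The module was a list of 59 genes named for their roles in cell division, from the cyclins and kinases of mitotic entry to the condensins that compact chromosomes. The rule took genes by name and used no measured value, but the list was chosen with earlier results of these data known. The study itself listed HJURP, TTK, SKA1, AURKB, KIF18B, SKA3, NEK2, CDC20 and MKI67 among its top genes, all lower in D20 against D1. The falls described here are not independent of that report. All 59 were found among the 25702 genes of the count table, of which 20434 had a count, and 56 of the 59 were among the 9490 genes that passed the filter on low values and were tested. WI-38 is a diploid fibroblast line from foetal lung, and the 12 RNA libraries came from 4 conditions of 3 flasks each, all in the same serum-containing medium. D1 flasks were untreated and D1+TGF-β flasks were treated, both being harvested on day 1 at passage 2 to 3, a day after flasks grown to confluence received either TGF-β or a medium change. D20 and D20+TGF-β flasks were harvested on day 20 at passage 5 to 6, after continued culture without or with TGF-β, and the flasks of each day-20 arm had been seeded from 1 untreated or 1 treated day-1 flask to reach near confluence at harvest. Day, passage and seeding therefore cannot be told apart in comparisons across days. At day 20, treatment cannot be told apart from parent flask and seeding, and "with TGF-β at day 20" below names the comparison of D20+TGF-β with D20. The p-values measure only the spread between flasks, which in each day-20 arm shared 1 parent flask.

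In mitosis, cyclin B with CDK1 drives entry, Aurora and Polo-like kinases build the spindle, and condensins compact the chromosomes. Kinetochores, assembled on centromeres marked by the histone variant CENP-A, attach chromosomes to spindle microtubules, and the spindle checkpoint holds back the anaphase-promoting complex until every chromosome is attached. Once the checkpoint is satisfied, CDC20 activates that complex, securin and cyclin B are destroyed, separase opens cohesin, and kinesins and the central spindle guide cytokinesis. Most of these genes are transcribed mainly in the G2 and M phases through promoters bound by the DREAM and B-MYB-MuvB complexes, so that in a bulk sample their RNA is low when few cells are dividing. Lower levels in such a sample can come from fewer dividing cells or from less RNA in each of them, and these cannot be told apart here.

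Libraries held 8674488 to 18286197 counts assigned to genes, and levels are given in cpm, read counts scaled to library totals and to trimmed mean of M-values (TMM) factors. The fibroblast genes were abundant in every library (COL1A1 2548 to 8184 cpm, VIM 5850 to 7874 cpm), while CD3E, CDH5 and NKX2-1 were at 0 and PTPRC, HBB and SFTPC were at or under 0.194 cpm in all 12. The epithelial list, mostly KRT8, KRT18 and KRT19, summed to 37.2 to 64.4 cpm, being lowest in D20+TGF-β and in D1 replicate 2, and the blood list, nearly all CD68, to 38.2 to 62.6 cpm. The endothelial list stayed at or under 2.63 cpm, and the part of these lists in the results was not tested. Myofibroblast genes summed to 1189 to 1953 cpm in D1, 3454 to 3830 in D1+TGF-β, 1982 to 2036 in D20 and 3855 to 4740 in D20+TGF-β. Some libraries stood apart from their condition in the mitosis genes. D20+TGF-β replicate 3 was the highest of its 3 flasks for 59 of 59 members, with a median ratio of 1.57 to the other flasks of its condition, while 40.0% of all tested genes were highest there. D1 replicate 2 was the highest of its 3 flasks for 58 of 59 members, with a median ratio of 1.33, against 35.2% of all tested genes. D20 replicate 1 was the highest for 46 of 59 (median ratio 1.24, 33.0% of tested genes), while the median ratios of D20+TGF-β replicate 2 and D1 replicate 1 were 0.710 and 0.748. D1 replicate 2 had the lowest myofibroblast sum of its condition, and D20+TGF-β replicate 3 had the highest of its own. The part of these differences in the results was not tested. Results are given with and without D20+TGF-β replicate 3 and D1 replicate 2 where they rest on them.

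The 59 genes followed one order of levels. Their summed level was 3348, 5032 and 3939 cpm in the 3 D1 flasks and 3954, 3649 and 3917 cpm in the D1+TGF-β flasks. It was 891, 734 and 730.0 cpm in D20 and 1540, 1439 and 2260 cpm in D20+TGF-β. All D20 flasks lay lowest, all D20+TGF-β flasks lay between them and the day-1 flasks, and the treated and untreated day-1 flasks overlapped. Gene by gene, the mean of D20 was below that of D20+TGF-β, which was below both day-1 means, for 59 of 59 members. For 57 of the 59 every single D20+TGF-β flask lay above every D20 flask and below every day-1 flask, an order held by 4.84% of all tested genes. The D20 mean was a median of 15.0% of the D1 mean over the 59 genes (range 9.30 to 48.2%), and the D20+TGF-β mean was 42.9% of the D1+TGF-β mean (range 26.9 to 77.0%).

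**Figure D1:**
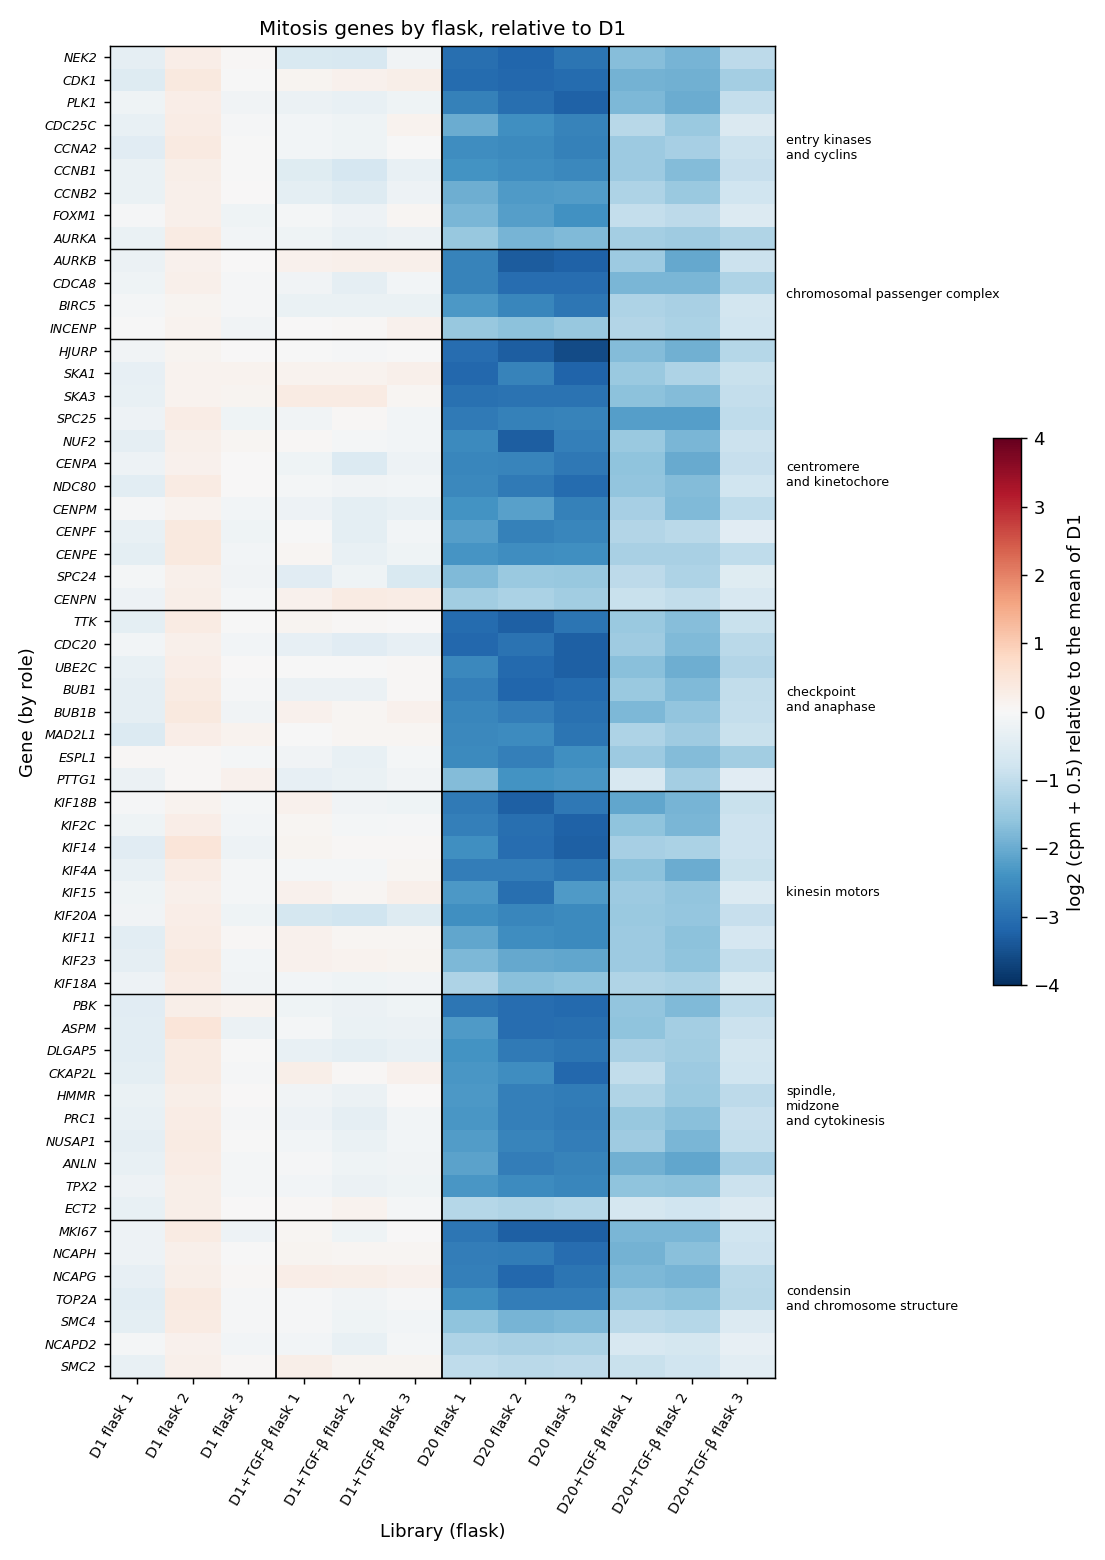
Level of each of the 59 mitosis genes (vertical axis, grouped by role) in each of the 12 libraries (horizontal axis), as log2 of cpm plus 0.5 relative to the mean of the D1 flasks, with blue below and red above it. The D20 columns are the darkest blue in all roles, the D20+TGF-β columns are intermediate with replicate 3 palest, and D1 replicate 2 is slightly red in nearly all genes.

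In the comparison of D20 with D1, between untreated flasks that differed in day, passage and seeding, all 56 tested members fell (edgeR's quasi-likelihood test, Benjamini-Hochberg adjusted p under 0.01), where 17.6% of all tested genes did. The median log2 fold change was -2.77, against 0.01 over all tested genes, and the members ranged from -3.45 for HJURP to -1.06 for SMC2. Of the 56, 48 were lower by a log2 fold change over 2, a size of call that 1.16% of all tested genes reached. A log2 fold change under -3 was found in 21 of the 56, against 24 of all 9490 tested genes. No flask of D20 overlapped with a flask of D1 in any of the 56, a separation seen downwards in 26.2% of tested genes. D20+TGF-β against D20 compared long treatment with none at equal time in culture, each arm having its own parent flask. Here 51 members rose, none fell and 5 did not pass the test, where 12.8% of tested genes rose. The flasks of D20+TGF-β lay above those of D20 without overlap in 55 of the 56, against 28.7% of tested genes. Their median log2 fold change was 1.44, against 0.01 over all tested genes.

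The promoters of the members were read for the letters of cell cycle promoter elements. The sequences shown are the 150 bases before the annotated start, from the promoter table of RefSeq (GRCh38.p14), for the member of each role with the largest fall in D20 against D1 that had an entry, and for the 2 members with the smallest falls and an entry, all written 5′ to 3′ on the gene's strand. Where the table gave several starts the one farthest upstream was used. Capitals mark TTTGAA or TTTAAA, the letters of the cell cycle genes homology region bound by MuvB, and CCAAT, the letters bound by NF-Y, on either strand.
HJURP, chr2:233854536-233854685, minus strand: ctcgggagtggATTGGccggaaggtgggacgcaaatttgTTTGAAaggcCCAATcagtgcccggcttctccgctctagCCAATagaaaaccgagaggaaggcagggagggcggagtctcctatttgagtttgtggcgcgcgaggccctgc
AURKB, chr17:8210250-8210399, minus strand: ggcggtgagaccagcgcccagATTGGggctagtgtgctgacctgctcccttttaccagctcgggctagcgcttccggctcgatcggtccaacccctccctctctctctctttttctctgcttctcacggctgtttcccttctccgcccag
KIF18B, chr17:44947774-44947923, minus strand: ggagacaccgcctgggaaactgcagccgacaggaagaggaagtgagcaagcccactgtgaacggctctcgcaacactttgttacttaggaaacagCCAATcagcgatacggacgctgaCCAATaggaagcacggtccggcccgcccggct
NEK2, chr1:211675622-211675771, minus strand: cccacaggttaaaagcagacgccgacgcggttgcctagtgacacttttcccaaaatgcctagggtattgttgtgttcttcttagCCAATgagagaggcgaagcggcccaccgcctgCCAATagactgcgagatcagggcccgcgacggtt
CDC20, chr1:43358831-43358980, plus strand: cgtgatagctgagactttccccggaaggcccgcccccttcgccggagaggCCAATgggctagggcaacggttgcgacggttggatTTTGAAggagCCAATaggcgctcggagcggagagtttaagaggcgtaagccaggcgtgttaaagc
MKI67, chr10:128126424-128126573, minus strand: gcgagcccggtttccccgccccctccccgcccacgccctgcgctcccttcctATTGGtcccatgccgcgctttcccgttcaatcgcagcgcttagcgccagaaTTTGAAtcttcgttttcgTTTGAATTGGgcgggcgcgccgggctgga
ASPM, chr1:197146670-197146819, minus strand: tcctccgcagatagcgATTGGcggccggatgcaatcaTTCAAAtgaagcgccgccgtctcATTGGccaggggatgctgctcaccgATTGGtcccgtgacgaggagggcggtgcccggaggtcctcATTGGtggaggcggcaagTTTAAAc
ECT2, chr3:172750576-172750725, plus strand: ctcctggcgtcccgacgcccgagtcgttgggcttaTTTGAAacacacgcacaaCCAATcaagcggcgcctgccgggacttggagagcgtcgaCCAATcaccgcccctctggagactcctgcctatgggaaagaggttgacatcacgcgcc
SMC2, chr9:104094159-104094308, plus strand: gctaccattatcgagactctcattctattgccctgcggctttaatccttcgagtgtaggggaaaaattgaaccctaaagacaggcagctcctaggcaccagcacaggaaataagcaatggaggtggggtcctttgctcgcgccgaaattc

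Of the 7 genes shown for their large falls, HJURP, CDC20, MKI67 and ASPM held TTTGAA letters in these 150 bases, and NEK2, AURKB and KIF18B did not, and the log2 fold changes of all 7 lay between -3.45 and -2.79. MKI67 held TTTGAA 2 times, and ASPM held CCAAT letters 4 times. ECT2, with one of the smallest falls, held both kinds of letters, and SMC2 held neither in this window. However, TTTGAA letters on either strand began at position -3 from the start in SMC2, running past the end of the window. In KIF18B they began at position 3, after the window. In the whole table, 51 members had 60 promoters of 300 bases (250 before to 50 after the start), and AURKA, BIRC5, CENPM, FOXM1, PBK, TPX2, TTK and UBE2C had no entry. TTTGAA on either strand was in 43 of the 60 (71.7%), against 15.2% of all 35116 promoters in the table and 10.5% of the 11587 promoters of tested genes. TTTAAA was in 26.7% of member promoters and 12.2% of all promoters, and CCAAT in 71.7% and 34.6%. CCAAT together with TTTGAA or TTTAAA was in 61.7% of member promoters and 9.27% of all promoters. The TTTGAA nearest to the start lay within 100 bases of it in 37 of the 43 member promoters that held one, and in 45.1% of all promoters that did. Among tested members, genes with TTTGAA in a promoter had a median log2 fold change of -2.77 in D20 against D1 and genes without it -2.85, a difference that was not tested.

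The 9 genes of mitotic entry included the cyclins CCNA2, CCNB1 and CCNB2, their kinase CDK1, its activating phosphatase CDC25C, the kinases PLK1, NEK2 and AURKA, and FOXM1, a transcription factor of G2 and M phase genes. All 8 tested genes fell in D20 against D1 (median log2 fold change -2.57), and 7 of them rose with TGF-β at day 20 (median 1.38). NEK2, a centrosome kinase that separates the spindle poles (chromosome 1, 211831999 to 211848972 on hg19), was at 19.4, 30.4 and 26.0 cpm in D1, 16.5, 16.2 and 22.9 in D1+TGF-β, 2.72, 2.35 and 2.94 in D20 and 7.37, 6.68 and 11.9 in D20+TGF-β. Every D20 flask of NEK2 was below every other flask, and the D20+TGF-β flasks lay between the D20 and the day-1 flasks. The gene fell 9.44-fold in D20 against D1, with a log2 fold change of -3.24 ± 0.25 (log2 fold change ± SE; edgeR adjusted p = 3.47e-07), and rose by 1.67 ± 0.27 (log2 fold change ± SE; edgeR adjusted p = 0.000298) with TGF-β at day 20.

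CDK1, the kinase that drives entry, stood at 44.7, 82.7 and 63.0 cpm in D1, 68.0, 70.9 and 74.2 in D1+TGF-β, 7.08, 6.75 and 7.10 in D20 and 16.9, 16.2 and 24.2 in D20+TGF-β. Its D20 flasks were nearly level, and its D1 flasks spread more widely than any other condition. It fell by 3.19 ± 0.21 (adjusted p = 1.4e-07) in D20 against D1 and rose by 1.44 ± 0.22 (adjusted p = 0.000196) with TGF-β at day 20. CCNB1, the cyclin of CDK1 in mitosis and the most abundant member per kilobase of exon in all of D1, D20 and D20+TGF-β, was at 119.5, 171 and 143 cpm in D1, 103, 90.2 and 117 in D1+TGF-β, 27.4, 25.5 and 23.9 in D20 and 52.0, 42.8 and 75.7 in D20+TGF-β. Its change in D20 against D1 was -2.50 ± 0.19 (adjusted p = 3.1e-07). AURKA, the spindle pole kinase, had the smallest fall of the group and was at 69.1, 104 and 77.9 cpm in D1, 74.9, 68.6 and 70.4 in D1+TGF-β, 28.9, 22.5 and 24.1 in D20 and 32.1, 30.8 and 36.3 in D20+TGF-β. It fell by 1.74 ± 0.14 (adjusted p = 4.72e-07), and the D20+TGF-β flasks lay above the D20 flasks without overlap, but the difference of 0.40 ± 0.14 (adjusted p = 0.0376) did not pass the test. TPX2, which activates AURKA on the spindle, fell by 2.51 ± 0.18 (adjusted p = 2.63e-07) and rose by 1.17 ± 0.18 (adjusted p = 0.000215).

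The chromosomal passenger complex corrects faulty attachments and consists of the kinase AURKB, its scaffold INCENP, survivin (BIRC5) and borealin (CDCA8). All 4 genes fell in D20 against D1 and all 4 rose with TGF-β at day 20. AURKB (chromosome 17, 8108051 to 8113918) was at 20.0, 26.8 and 23.6 cpm in D1, 26.6, 27.3 and 27.1 in D1+TGF-β, 3.30, 1.90 and 2.02 in D20 and 8.29, 5.24 and 12.8 in D20+TGF-β. The D20 libraries held only 34, 25 and 33 reads of it, and its D20+TGF-β flasks differed among themselves more than those of most members, with replicate 3 highest. Its log2 fold changes were -3.33 ± 0.27 (adjusted p = 4.77e-07) in D20 against D1 and 1.91 ± 0.29 (adjusted p = 0.000177) with TGF-β at day 20, one of the 3 largest rises in the module. INCENP was at 40.8, 46.2 and 37.9 cpm in D1, 42.2, 43.3 and 47.4 in D1+TGF-β, 14.2, 12.9 and 14.1 in D20 and 18.3, 17.0 and 23.996 in D20+TGF-β. Its flasks did not overlap between D20 and D20+TGF-β either, but its changes were smaller, at -1.60 ± 0.12 (adjusted p = 3.47e-07) and 0.52 ± 0.13 (adjusted p = 0.00517). Per kilobase of annotated exon, AURKB and INCENP were at similar mean levels in D1 (10.5 ± 1.51 and 9.35 ± 0.952 cpm per kb, SD, n = 3), while in D20 AURKB was at 1.07 ± 0.346 and INCENP at 3.08 ± 0.162.

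The spindle checkpoint and anaphase group held the checkpoint kinases BUB1, BUB1B and TTK, the inhibitor MAD2L1, the target CDC20, securin (PTTG1), separase (ESPL1) and UBE2C, the ubiquitin-conjugating enzyme of the anaphase-promoting complex. All 8 fell in D20 against D1 (median -2.97) and all 8 rose with TGF-β at day 20 (median 1.54). TTK, which starts checkpoint signalling, had the largest fall and was at 30.8, 51.9 and 40.1 cpm in D1, 44.3, 42.4 and 41.2 in D1+TGF-β, 4.36, 3.79 and 4.96 in D20 and 14.3, 12.2 and 22.1 in D20+TGF-β. The 4 conditions kept the order of the module, with the D1 and D1+TGF-β flasks overlapping. TTK fell by 3.22 ± 0.23 (adjusted p = 2.54e-07) and rose by 1.87 ± 0.25 (adjusted p = 5.21e-05). CDC20, the activator of the anaphase-promoting complex (chromosome 1, 43824652 to 43828874), was at 70.1, 87.2 and 70.3 cpm in D1, 60.8, 54.8 and 60.8 in D1+TGF-β, 8.15, 9.33 and 7.41 in D20 and 28.0, 21.99 and 35.7 in D20+TGF-β. All its treated flasks lay below the untreated ones at day 1 and above them at day 20. It fell by 3.20 ± 0.16 (adjusted p = 2.51e-08) and rose by 1.79 ± 0.17 (adjusted p = 2.55e-06). PTTG1, securin, showed the smallest fall of the group and was at 40.0, 49.0 and 53.9 cpm in D1, 37.9, 39.4 and 43.6 in D1+TGF-β, 14.0, 8.65 and 9.06 in D20 and 30.4, 18.3 and 34.4 in D20+TGF-β. It fell by 2.20 ± 0.22 (adjusted p = 2.61e-06) in D20 against D1, and D20+TGF-β replicate 3 came closest to the D1+TGF-β flasks. ESPL1, its target, had the lowest level per kilobase of the 59 genes in D1, D20 and D20+TGF-β, and was at 22.1, 22.1 and 20.3 cpm in D1, 19.3, 17.3 and 20.1 in D1+TGF-β, 3.30, 2.81 and 3.55 in D20 and 7.49, 6.16 and 7.84 in D20+TGF-β. Its flasks were the most even of all members in D1.

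The gene with the largest fall of the module, HJURP, was among the 12 genes of the centromere and kinetochore. CENPA is the centromeric histone, HJURP deposits it, CENPN reads it and CENPM belongs to the same inner complex. CENPE and CENPF bind microtubules at the outer kinetochore, NDC80, NUF2, SPC24 and SPC25 form the NDC80 complex that holds microtubule ends, and SKA1 and SKA3 reinforce that grip. All 10 tested genes fell in D20 against D1 (median -2.99) and 9 rose with TGF-β at day 20 (median 1.62). HJURP (chromosome 2, 234742062 to 234763212, overlapping the span of MROH2A on the opposite strand) was at 43.8, 51.7 and 48.9 cpm in D1, 47.99, 46.2 and 47.4 in D1+TGF-β, 5.33, 4.48 and 3.61 in D20 and 14.1, 12.2 and 21.4 in D20+TGF-β. The treated day-1 flasks lay within the range of the untreated ones, and it fell 10.96-fold, with a log2 fold change of -3.45 ± 0.19, adjusted p = 3.23e-08, to 9.30% of its D1 mean. With TGF-β at day 20 it rose 3.60-fold, by 1.85 ± 0.20 (adjusted p = 8.65e-06).

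SKA1 had the largest rise of the module with TGF-β at day 20 and was at 15.3, 21.3 and 21.1 cpm in D1, 21.4, 21.0 and 22.2 in D1+TGF-β, 1.75, 2.58 and 1.65 in D20 and 6.52, 7.91 and 10.2 in D20+TGF-β. Its flasks did not overlap between D20 and D20+TGF-β, and it rose 4.05-fold, by 2.02 ± 0.23 (adjusted p = 1.51e-05). CENPN fell least in its group and overlaps CMC2 on the opposite strand, and it was at 42.6, 57.8 and 46.4 cpm in D1, 55.4, 61.9 and 59.96 in D1+TGF-β, 18.4, 20.3 and 18.2 in D20 and 26.1, 24.7 and 31.5 in D20+TGF-β, with changes of -1.37 ± 0.12 (adjusted p = 9.85e-07) in D20 against D1 and 0.53 ± 0.12 (adjusted p = 0.00392) with TGF-β at day 20. SPC25, a globular subunit of the NDC80 complex, was at 11.4, 16.5 and 11.8 cpm in D1, 11.9, 13.7 and 12.3 in D1+TGF-β, 1.46, 1.59 and 1.65 in D20 and 2.52, 2.47 and 6.31 in D20+TGF-β. Replicates 1 and 2 of D20+TGF-β were near the D20 flasks and replicate 3 well above them, and the difference of 1.20 ± 0.36 (adjusted p = 0.0165) did not pass the test. The 4 subunits of that complex were unequal per kilobase of exon in D1, at 9.57 ± 2.49 for NDC80, 8.56 ± 1.69 for NUF2, 7.24 ± 1.53 for SPC25 and 2.95 ± 0.427 cpm per kb for SPC24 (SD, n = 3). In D20 they stood closer together, at 1.25 ± 0.251, 1.08 ± 0.301, 0.857 ± 0.0554 and 0.871 ± 0.104 cpm per kb.

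**Figure D2:**
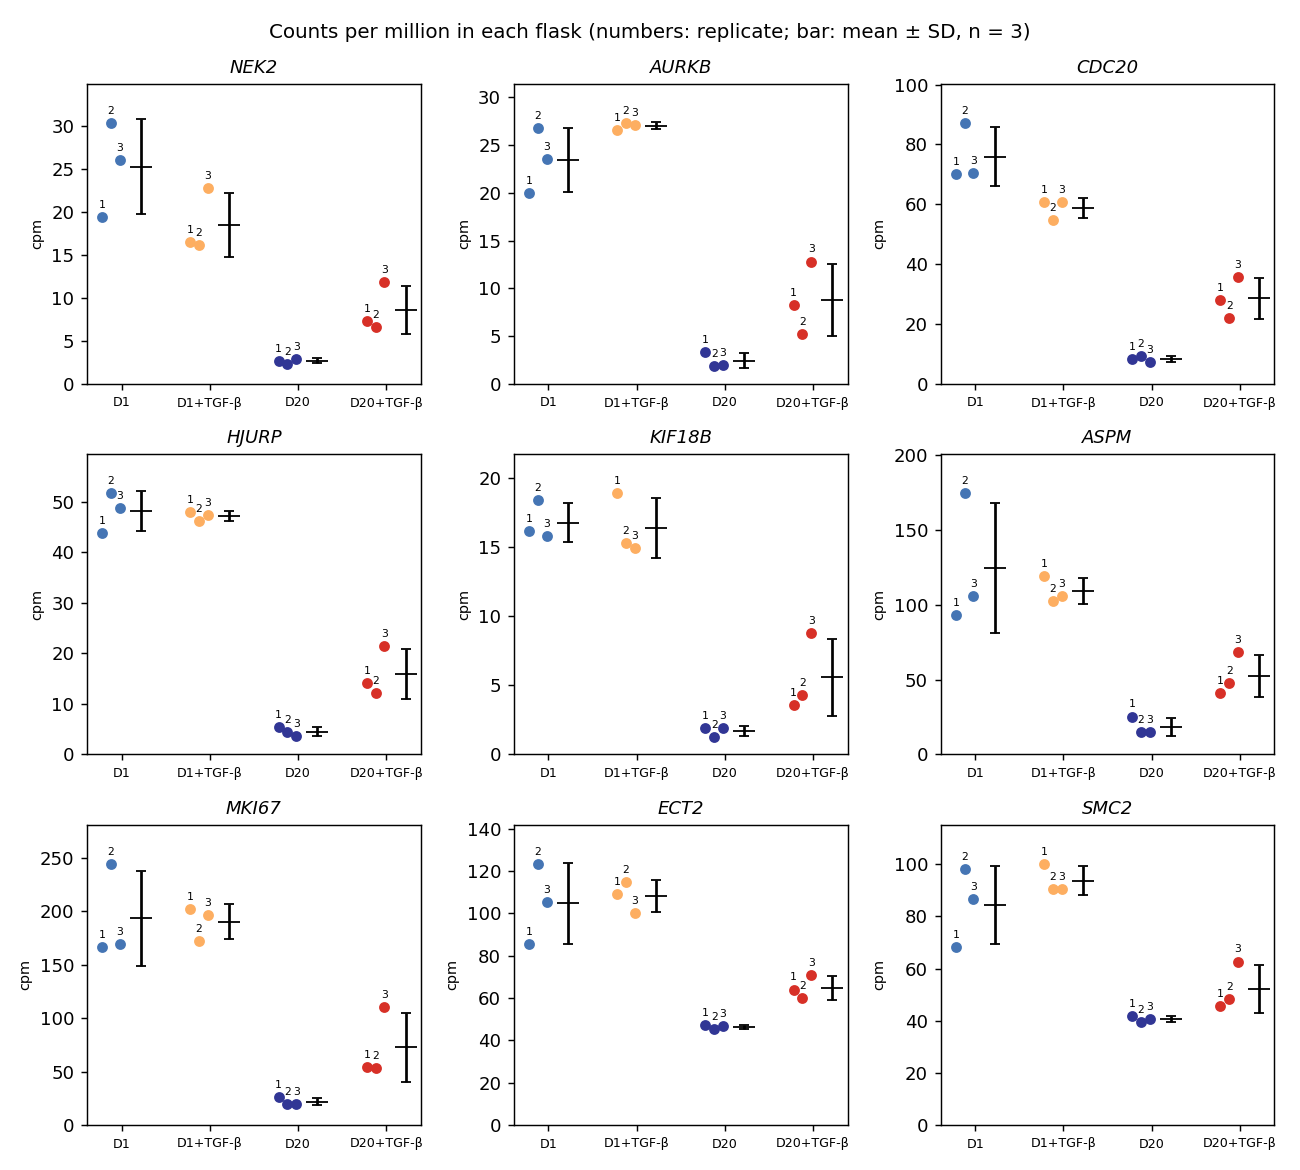
Level in cpm (vertical axis, from 0) of 9 mitosis genes in each flask of the 4 conditions (horizontal axis), with points numbered by replicate and bars giving mean ± SD of 3 flasks. D20 is lowest in all 9 genes, D20+TGF-β replicate 3 is the highest of its 3 flasks in all 9, and ECT2 and SMC2 show the shallowest differences.

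Kinesin motors move or shorten microtubules. KIF11 and KIF15 push spindle poles apart, KIF2C depolymerises microtubules, KIF18A and KIF18B control their length, KIF4A acts on chromosome arms and the midzone, and KIF14, KIF20A and KIF23 act in the central spindle and cytokinesis. All 9 fell in D20 against D1 (median -2.66), and 7 rose with TGF-β at day 20 (median 1.44), KIF18A and KIF23 being the exceptions. KIF18B had the largest fall and was at 16.2, 18.4 and 15.8 cpm in D1, 18.9, 15.3 and 14.9 in D1+TGF-β, 1.94, 1.29 and 1.90 in D20 and 3.60, 4.32 and 8.80 in D20+TGF-β. All D20 flasks were under 2 cpm, and the D20+TGF-β flasks lay above them without overlap. Its log2 fold changes were -3.29 ± 0.28 (adjusted p = 7.81e-07) and 1.65 ± 0.32 (adjusted p = 0.00119).

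KIF14 rose by 1.90 ± 0.28 (adjusted p = 0.000139) with TGF-β at day 20, and was at 26.6, 51.9 and 32.2 cpm in D1, 39.8, 38.5 and 38.2 in D1+TGF-β, 6.40, 4.02 and 3.37 in D20 and 14.4, 15.0 and 20.7 in D20+TGF-β. The 3 D20+TGF-β flasks of KIF14 were closer to each other than those of most members. KIF18A, the related motor, was at 26.0, 37.3 and 27.5 cpm in D1, 27.9, 26.8 and 27.1 in D1+TGF-β, 12.5, 9.26 and 9.67 in D20 and 12.9, 12.3 and 19.6 in D20+TGF-β. D20 replicate 1 lay between D20+TGF-β replicates 1 and 2, the one overlap of day-20 flasks among the 56 tested genes, and the difference of 0.51 ± 0.19 (adjusted p = 0.045) did not pass the test. It fell by 1.55 ± 0.18 (adjusted p = 1.28e-05) in D20 against D1. KIF23, the kinesin of the centralspindlin complex, fell by 2.01 ± 0.18 (adjusted p = 1.47e-06), and its difference with TGF-β at day 20 was 0.67 ± 0.19 (adjusted p = 0.0121).

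Genes of the spindle, midzone and cytokinesis comprised the microtubule bundlers PRC1 and NUSAP1, the spindle proteins TPX2, ASPM, DLGAP5, HMMR and CKAP2L, the contractile ring scaffold ANLN, the RhoA activator ECT2 and the kinase PBK. All 10 fell in D20 against D1 (median -2.68) and all 10 rose with TGF-β at day 20 (median 1.38). PBK, whose span overlaps ESCO2 on the opposite strand, was at 42.4, 69.1 and 64.8 cpm in D1, 51.5, 49.5 and 52.4 in D1+TGF-β, 7.47, 6.60 and 6.30 in D20 and 19.4, 17.1 and 28.7 in D20+TGF-β. It fell by 3.12 ± 0.21 (adjusted p = 1.48e-07) and rose by 1.68 ± 0.22 (adjusted p = 4.73e-05), with no overlap of D20 flasks and any other. ECT2 was at 85.3, 123 and 106 cpm in D1, 109, 115 and 100.1 in D1+TGF-β, 47.1, 45.4 and 46.9 in D20 and 64.0, 59.8 and 70.9 in D20+TGF-β. Its D20 level was 44.4% of the D1 mean, and it changed by -1.17 ± 0.11 (adjusted p = 2.4e-06) and by 0.48 ± 0.12 (adjusted p = 0.00448) with TGF-β at day 20. ANLN was called higher with TGF-β at day 20, by 0.78 ± 0.21 (adjusted p = 0.00838), but lost the call in 10 of 24 alternative analyses.

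Condensin and chromosome structure genes were the condensin I subunits NCAPG, NCAPH and NCAPD2, the ATPases SMC2 and SMC4 that both condensins share, topoisomerase TOP2A, which untangles DNA, and the proliferation marker MKI67, which coats mitotic chromosomes. All 7 fell in D20 against D1 (median -2.67) and 6 rose with TGF-β at day 20 (median 1.24). MKI67 was at 167, 245 and 169 cpm in D1, 203, 172 and 196 in D1+TGF-β, 25.8, 19.8 and 19.9 in D20 and 54.1, 53.6 and 110.2 in D20+TGF-β. D20+TGF-β replicate 3 lay well above its sister flasks and below all day-1 flasks. MKI67 fell 8.93-fold, with a log2 fold change of -3.16 ± 0.26, adjusted p = 5.73e-07, and rose 3.33-fold, by 1.74 ± 0.26 (adjusted p = 0.000131). SMC2, at the other end, was at 68.2, 98.0 and 86.7 cpm in D1, 100.2, 90.4 and 90.6 in D1+TGF-β, 41.8, 39.4 and 40.8 in D20 and 45.6, 48.5 and 62.7 in D20+TGF-β. It fell by 1.06 ± 0.13 (adjusted p = 2.1e-05) and differed by 0.36 ± 0.13 (adjusted p = 0.0448) with TGF-β at day 20, which did not pass the test.

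The subunits of condensin I had falls of several sizes. NCAPH changed by -3.07 ± 0.24 (adjusted p = 4.12e-07) and NCAPG by -3.01 ± 0.21 (adjusted p = 1.77e-07) in D20 against D1, while NCAPD2 changed by -1.27 ± 0.10 (adjusted p = 5.14e-07) and SMC4 by -1.76 ± 0.18 (adjusted p = 3.36e-06). The difference between these falls was not tested. Per kilobase of exon, NCAPH was at 3.95 ± 0.547 and NCAPD2 at 19.5 ± 2.03 cpm per kb in D1, and at 0.476 ± 0.0570 and 8.09 ± 0.112 in D20 (SD, n = 3). The span of NCAPD2 overlaps MRPL51 on the opposite strand.

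**Figure D3:**
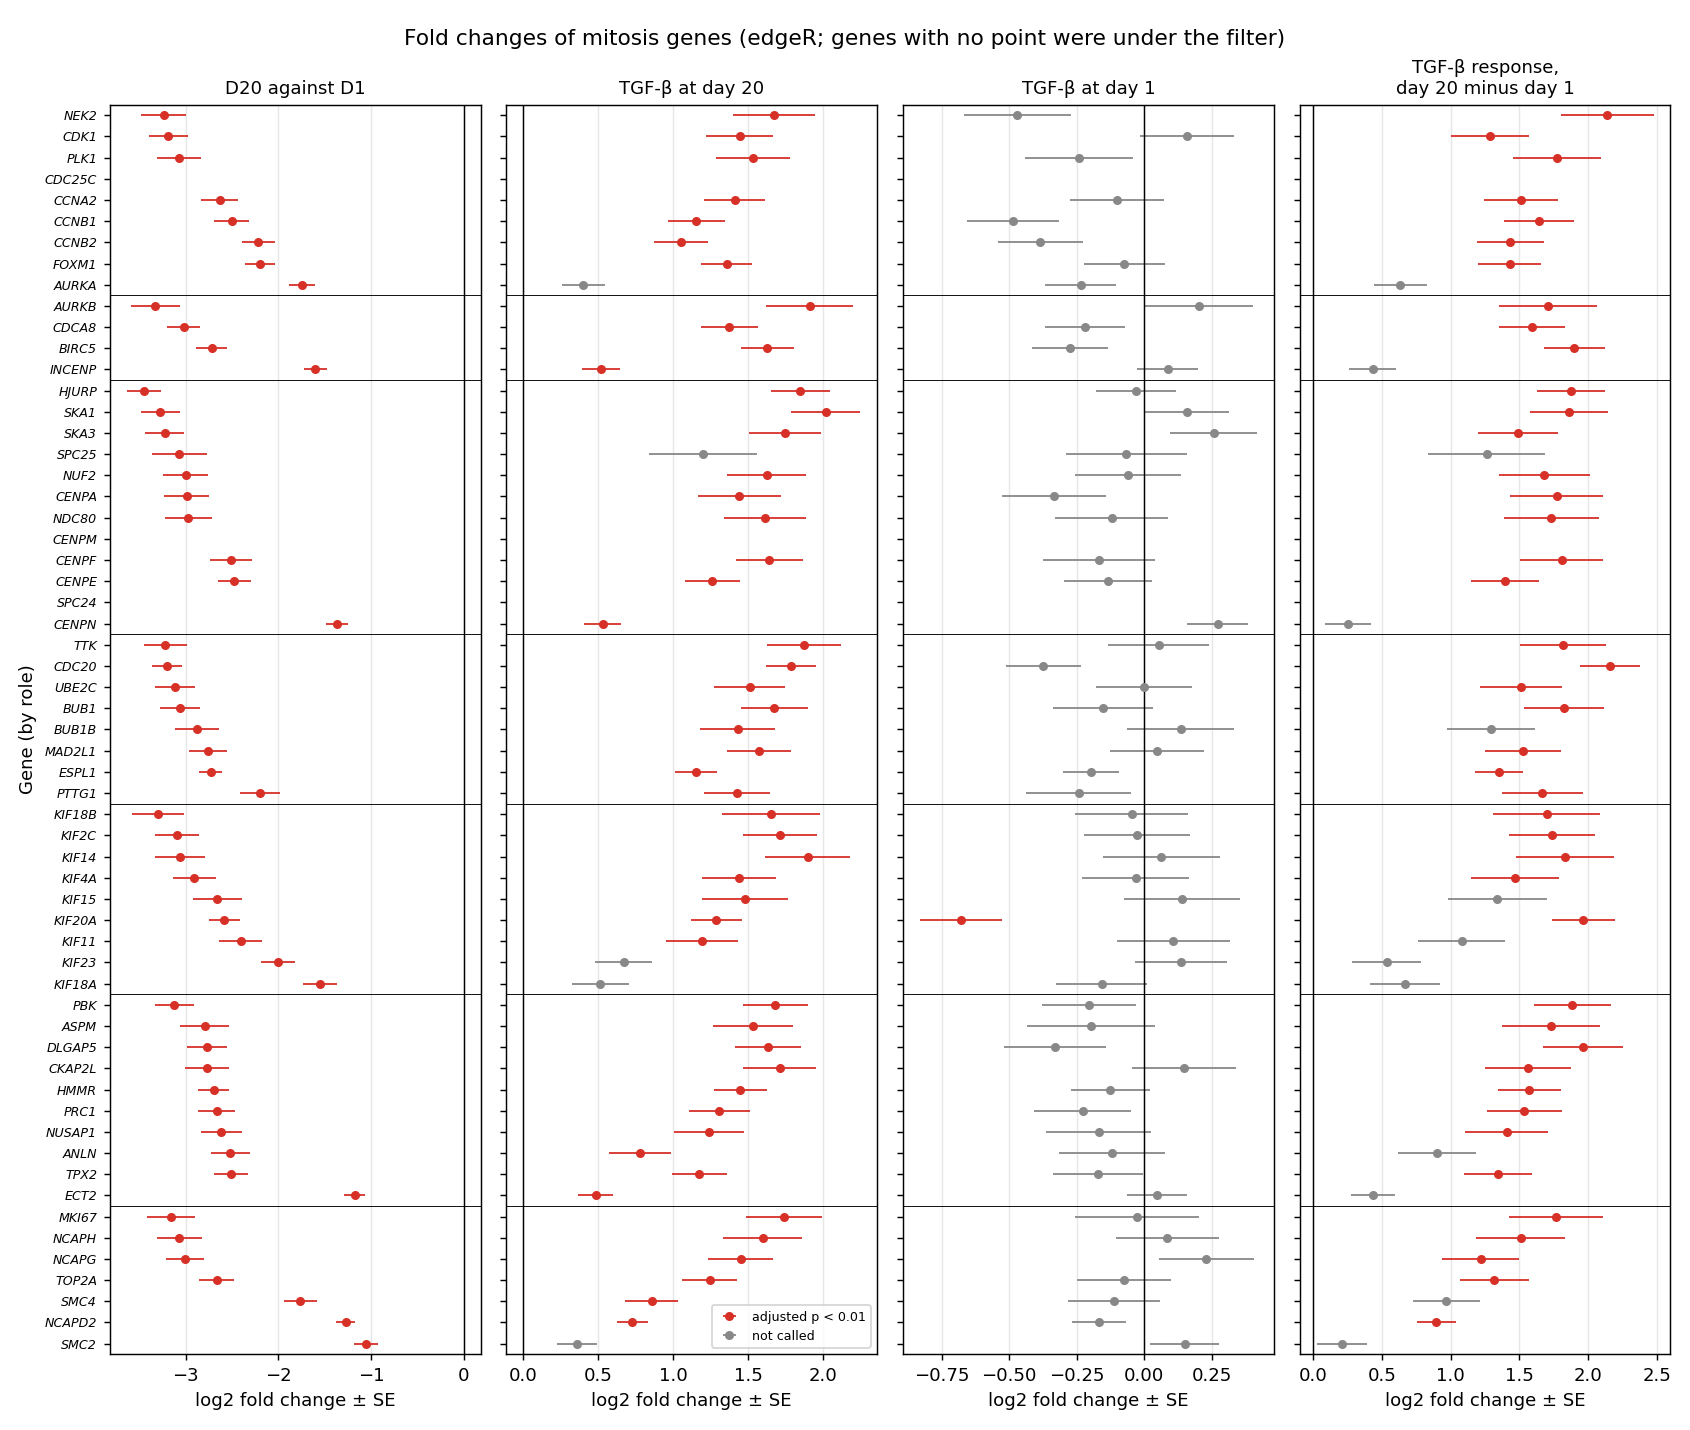
Log2 fold change ± SE (horizontal axis, from edgeR over 12 libraries) of each mitosis gene (vertical axis, by role) in 4 comparisons, red where the adjusted p was under 0.01 and grey where not. All 56 tested genes are red and below 0 in D20 against D1, 51 are red and above 0 for TGF-β at day 20, and 1, KIF20A, is red for TGF-β at day 1.

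D1+TGF-β against D1 gave the effect of 1 day of treatment. Of the 56 tested members 1 fell, none rose and 55 did not pass the test, where 13.4% of all tested genes were called in either direction and 6.50% were called lower. At an unadjusted p under 0.05, 6 members (10.7%) passed, against 36.9% of all tested genes. The median was -0.09, against -0.02 over all tested genes, and the range was -0.68 to 0.27. In 5 tested members (BIRC5, CCNB1, CDC20, ESPL1 and KIF20A) all treated flasks lay below the untreated ones, against 18.8% of tested genes. KIF20A, a kinesin of the central spindle, was the member that fell. It was at 71.0, 93.1 and 68.8 cpm in D1, 47.99, 44.1 and 54.3 in D1+TGF-β, 13.7, 12.4 and 12.9 in D20 and 27.7, 26.5 and 41.0 in D20+TGF-β, so that its treated day-1 flasks lay below all untreated ones, and it changed by -0.68 ± 0.15 (adjusted p = 0.00557). The span of KIF20A overlaps BRD8 and CDC23 on the opposite strand. The call was lost without D1 replicate 2 (adjusted p = 0.0141), without D1+TGF-β replicate 1 (0.0245) and without D1+TGF-β replicate 2 (0.0382). CCNB1 (-0.49 ± 0.17, adjusted p = 0.0541) and NEK2 (-0.47 ± 0.20, adjusted p = 0.101) had the next largest values, in the same direction, and did not pass the test.

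The sign of the median rested on D1 replicate 2. Without it the median became 0.10 and the 1 member called was CENPN, higher by 0.42 ± 0.10 (log2 fold change ± SE, edgeR adjusted p = 0.00564), while 19.8% of all tested genes were called. Without it and without D20+TGF-β replicate 3, an analysis added after the data were seen, 6 members were called, while 27.8% of all tested genes were. BUB1B, CDK1, CENPN, KIF23 and NCAPG were higher, by 0.37 to 0.42, and KIF20A had a log2 fold change of -0.52. These genes were named after their values were seen.

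The contrast of treated with untreated flasks at day 20 differed from that at day 1. At day 20 treatment and parent flask cannot be told apart. In the test of the difference itself (response at D20 minus response at D1), 43 of the 56 members were called higher and none lower, where 4.51% of all tested genes were called higher. The median difference was 1.52 on the log2 scale, against 0.02 over all tested genes. CDC20 had the largest, 2.16 ± 0.22 (adjusted p = 2.85e-05), the sum of -0.37 at day 1 with its sign turned and 1.79 at day 20. NEK2 followed with 2.14 ± 0.34 (adjusted p = 0.000781) and KIF20A with 1.97 ± 0.23 (adjusted p = 9.19e-05). The 13 members not called were AURKA, BUB1B, INCENP, CENPN, SPC25, KIF11, KIF15, KIF18A, KIF23, ANLN, ECT2, SMC2 and SMC4, with differences from 0.21 for SMC2 to 1.34 for KIF15. The count was 27 without D20 replicate 3, where 5.91% of all tested genes were called in either direction, against 10.4% in the main fit. Without both D1 replicate 2 and D20+TGF-β replicate 3 it was 46 with a median of 1.16, where 23.9% of all tested genes were called.

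Among treated flasks, D20+TGF-β against D1+TGF-β, 54 members fell and none rose, where 17.7% of all tested genes fell. The median was -1.23, against 0.01 over all tested genes, and every treated flask of day 20 was under every treated flask of day 1 in all 56, against 31.5% of tested genes. CDK1 (-1.90 ± 0.19, adjusted p = 7.35e-06), SPC25 (-1.81 ± 0.27, adjusted p = 0.000114) and NCAPG (-1.79 ± 0.19, adjusted p = 9.25e-06) had the largest falls. CENPF, a large protein of the outer kinetochore, and PTTG1 did not pass the test. CENPF was at 155, 252 and 172 cpm in D1, 193, 147 and 177 in D1+TGF-β, 41.6, 29.1 and 31.5 in D20 and 84.7, 91.5 and 142 in D20+TGF-β, with D20+TGF-β replicate 3 close under the lowest D1+TGF-β flask, and changed by -0.70 ± 0.21 (adjusted p = 0.0137), and PTTG1 by -0.53 ± 0.20 (adjusted p = 0.0406).

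The calls on the high libraries were checked by leaving them out. Without D20+TGF-β replicate 3 the median of D20+TGF-β against D20 was 1.17 and 47 members were called higher. There 23.9% of all tested genes were called in either direction, against 27.5% in the main fit. The median of D20+TGF-β against D1+TGF-β was -1.45 with 55 called lower. There 35.4% of all tested genes were called, against 34.8% in the main fit. Without D1 replicate 2 the median of D20 against D1 was -2.60 and 56 were called lower. There 42.2% of all tested genes were called, against 36.4% in the main fit. Without both, 53 members rose with TGF-β at day 20, with a median of 1.19, where 36.1% of all tested genes were called. In D20+TGF-β replicate 3 the summed members were at 2260 cpm against 1540 and 1439 in its sister flasks, and still under the lowest day-1 flask.

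CDC25C, CENPM and SPC24 did not pass the filter of 10 cpm in at least 6 libraries, and were read from a fit with no gene filter over 20434 genes, in which 12.0% of genes were called lower in D20 against D1. CDC25C was at 7.48, 11.4 and 8.85 cpm in D1, 8.51, 8.17 and 10.3 in D1+TGF-β, 1.94, 1.29 and 1.04 in D20 and 4.001, 2.98 and 6.02 in D20+TGF-β, CENPM at 7.99, 9.10 and 7.66 cpm in D1, 7.09, 6.24 and 6.64 in D1+TGF-β, 1.16, 1.44 and 0.857 in D20 and 2.97, 2.05 and 3.82 in D20+TGF-β and SPC24 at 7.90, 9.76 and 7.49 cpm in D1, 6.03, 7.32 and 5.33 in D1+TGF-β, 2.13, 2.66 and 2.63 in D20 and 3.83, 3.29 and 5.83 in D20+TGF-β. Each had its lowest 3 flasks in D20, and the D20+TGF-β flasks were intermediate except for SPC24 replicate 3, which reached the range of D1+TGF-β. Their log2 fold changes were -2.83 ± 0.25 (adjusted p = 1.1e-09), -2.93 ± 0.23 (adjusted p = 9.6e-11) and -1.83 ± 0.21 (adjusted p = 1.01e-07) in D20 against D1, all 3 called lower. With TGF-β at day 20 the first 2 rose, by 1.67 ± 0.28 (adjusted p = 3.59e-05) and 1.39 ± 0.26 (adjusted p = 0.000157), and SPC24 narrowly missed the threshold of 0.01, at 0.79 (adjusted p = 0.010002), where 8.62% of genes in that fit were called higher.

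Among all tested genes 18.9% rose in D20 against D1 and 14.7% fell with TGF-β at day 20, and related lists of the division machinery are read against these and the shares above. Of 26 further kinetochore and checkpoint genes tested, 20 fell in D20 against D1 (median -1.18) but 7 rose and 1 fell with TGF-β at day 20 (median 0.37). ZWINT, which docks the checkpoint complex at the kinetochore, fell by 2.29 ± 0.17 (adjusted p = 2.56e-07) and rose by 0.75 ± 0.18 (adjusted p = 0.00397), CENPU, an inner kinetochore subunit, fell by 2.55 ± 0.20 (adjusted p = 4.05e-07) and rose by 1.18 ± 0.21 (adjusted p = 0.000598), and NSL1, a subunit of the MIS12 complex, was at 0.06 ± 0.07 (adjusted p = 0.547) and -0.18 ± 0.08 (adjusted p = 0.0735). Of 27 further centrosome, spindle and cytokinesis genes, 19 fell and 2 rose in D20 against D1, and 15 rose and 2 fell with TGF-β at day 20. KIFC1, a minus-end kinesin, fell by 2.94 ± 0.18 (adjusted p = 7.91e-08) and rose by 1.51 ± 0.19 (adjusted p = 3.19e-05), TACC3, a spindle microtubule crosslinker, fell by 2.66 ± 0.16 (adjusted p = 7.91e-08) and rose by 1.00 ± 0.16 (adjusted p = 0.00031), and the septin SEPT9 was at -0.00 ± 0.08 (adjusted p = 0.965) and fell by 0.52 ± 0.08 (adjusted p = 0.00017). Among 12 further entry regulators, 8 fell in D20 against D1 and 7 rose with TGF-β at day 20, with CKS2, a CDK subunit, at -1.85 ± 0.13 (adjusted p = 1.76e-07) and 0.67 ± 0.13 (adjusted p = 0.00104) and CCNF at -2.09 ± 0.15 (adjusted p = 1.84e-07) and 0.89 ± 0.15 (adjusted p = 0.000465). CDC25B, a phosphatase related to CDC25C, was at -0.14 ± 0.10 (adjusted p = 0.259) in D20 against D1.

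Of 14 genes of the anaphase-promoting complex list, 5 fell and 1 rose in D20 against D1, and 2 rose with TGF-β at day 20, which were UBE2S, an E2 enzyme of the complex, with log2 fold changes of -1.68 ± 0.09 (adjusted p = 2.51e-08) and 0.77 ± 0.09 (adjusted p = 1.58e-05), and FBXO5, its inhibitor, with -1.97 ± 0.18 (adjusted p = 1.17e-06) and 0.81 ± 0.19 (adjusted p = 0.0041). ANAPC13, a core subunit, was at 0.01 ± 0.09 (adjusted p = 0.923) in D20 against D1. Of 12 cohesin genes 3 fell, and only sororin, CDCA5, rose with TGF-β at day 20 (0.83 ± 0.13, adjusted p = 0.000277), having fallen by 2.42 ± 0.12 (adjusted p = 2.51e-08). SMC1A, a core ring subunit, fell by 0.89 ± 0.09 (adjusted p = 3.4e-06), and STAG2 was at -0.00 ± 0.11 (adjusted p = 0.995). Of 13 genes of condensin II, chromatin partners and lamina, 12 fell and 1, TOP2B, rose (0.31 ± 0.09, adjusted p = 0.00993), and 7 rose with TGF-β at day 20. KPNA2, an importin, fell by 1.43 ± 0.09 (adjusted p = 9.91e-08) and rose by 0.37 ± 0.09 (adjusted p = 0.00459), and the histone variant H2AFZ fell by 1.57 ± 0.11 (adjusted p = 2.45e-07) and rose by 1.13 ± 0.11 (adjusted p = 4.5e-06).

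Alpha and beta tubulins are the subunits of the spindle microtubules and of the cytoskeleton of all cells. The tubulin list also held gamma-tubulin (TUBG1) and its complex partners TUBGCP2 and TUBGCP3. In this list 9 of 12 tested genes fell in D20 against D1 (median -0.89), but none rose and 2 fell with TGF-β at day 20 (median -0.04). TUBA1C was at 688 ± 69.1 cpm in D1, 238 ± 18.5 in D20 and 238 ± 48.1 in D20+TGF-β (SD, n = 3), and TUBB4B at 520.1 ± 32.3, 207 ± 14.2 and 211 ± 37.9 cpm. The treated and untreated day-20 flasks of both genes overlapped. TUBB3 was at -0.00 ± 0.13 (adjusted p = 0.98) in D20 against D1.

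Of the 16 tested regulators of the DREAM, MuvB, MYB and E2F families, which act on promoters of cell cycle genes, 7 fell and 2 rose in D20 against D1 and 1 rose with TGF-β at day 20. RBL1, the pocket protein p107, fell by 1.46 ± 0.14 (adjusted p = 2.24e-06) and was at 0.25 ± 0.15 (adjusted p = 0.21) with TGF-β at day 20. TFDP2, a dimerisation partner of E2F, rose by 1.10 ± 0.09 (adjusted p = 5.33e-07), and NFYC, a subunit of NF-Y, was at 0.02 ± 0.08 (adjusted p = 0.85). MYBL2 (B-MYB), which was picked after its values were seen, fell by 2.61 ± 0.27 (adjusted p = 3.73e-06) and was at 0.87 ± 0.31 (adjusted p = 0.0387) with TGF-β at day 20, where the mean went from 2.496 ± 0.696 to 4.55 ± 2.02 cpm (SD, n = 3). E2F7, picked likewise, was the regulator that rose with TGF-β at day 20, by 1.83 ± 0.22 (adjusted p = 2.36e-05), and had a log2 fold change of -1.62 ± 0.22, adjusted p = 4.15e-05 in D20 against D1.

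**Figure D4:**
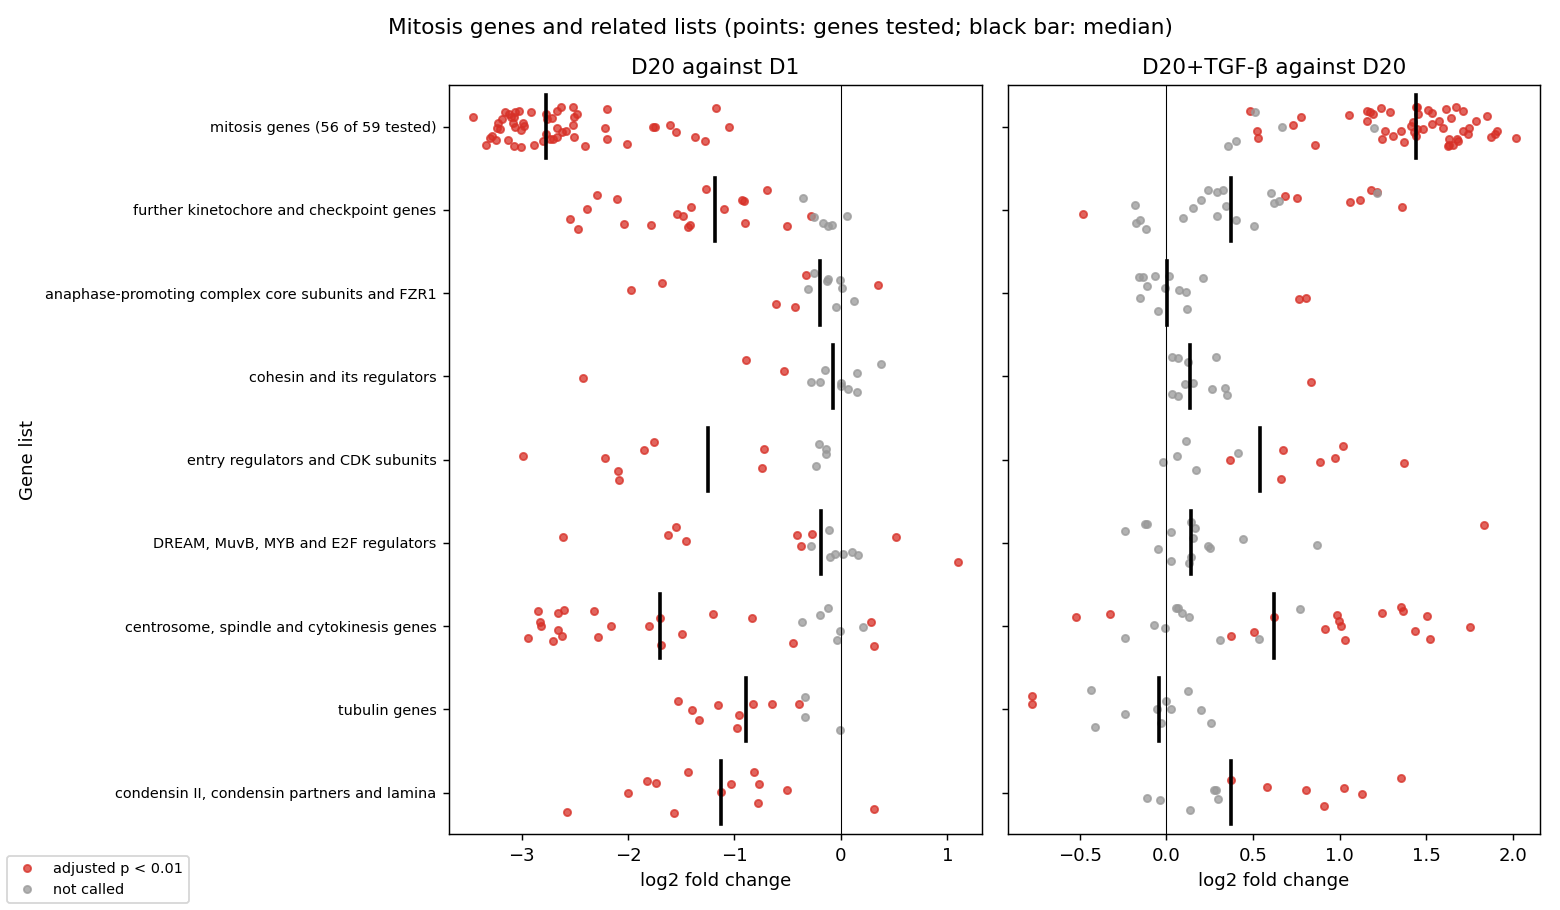
Log2 fold change (horizontal axis) of each tested gene of the module and of 8 related lists (vertical axis) in D20 against D1 and in D20+TGF-β against D20, red where adjusted p was under 0.01, with black bars for medians. The module has the lowest median in D20 against D1 and the highest with TGF-β at day 20, and the tubulin list lies around 0 in the latter.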

How the data were processed

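RNA from 12 flasks of WI-38 cells (4 conditions of 3 flasks) was sequenced with a directional library kit. Raw counts per gene, which the authors deposited for each of the 4 lanes of a library, were used for the main tests after lanes were summed. Reads had been trimmed with Trimmomatic and mapped to hg19 with Rsubread, per the methods. The annotation and use of strand in counting are not given in the sources used here, and 28 of the 59 members overlap a gene span on the opposite strand, which makes their levels uncertain. The authors also deposited log2 values from limma's voom for 9412 genes, used only as an alternative. Genes were kept if 6 or more of the 12 libraries reached 10 cpm, and the 9490 kept were tested in 1 edgeR quasi-likelihood fit (edgeR 4.0.16, R 4.3.3, TMM factors), with Benjamini-Hochberg adjustment over all of them and a threshold of 0.01, a filter and threshold adapted from the study's methods, which used limma. DESeq2 1.42.0 and limma 3.58.1 served as alternatives. Fits were tested on simulated data.

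Libraries held 8674488 to 18286197 counts, so that members at a few cpm in D20 rest on few reads. Genes were matched by Entrez identifier, 54 of 59 members by the symbols of the log2 table and 5 by RefSeq. Gene positions are those of GENCODE on GRCh37 (hg19), and promoters those of RefSeq on GRCh38.p14. The genes given values are, in each role, those with the largest and smallest change in D20 against D1, the 3 largest changes in each other comparison, the members under the filter, and in each related list the 2 smallest and the 1 largest p in D20 against D1, and TPX2, ESPL1, KIF23, ANLN, NCAPH, NCAPD2, SMC4, CENPF, MYBL2 and E2F7 were added after their values were seen. The members and lists were chosen with earlier results of these data known.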

Additional observations from a re-analysis of the deposited data

Results flagged for a closer look

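The contrast of treated with untreated flasks differed between day 1 and day 20 in 43 of the 56 tested members, by a test of the difference of the responses in edgeR. All were in the direction of a higher response at day 20, where treatment and parent flask cannot be told apart. The largest differences were in CDC20 (2.16 on the log2 scale), NEK2 (2.14) and KIF20A (1.97). For these 3 genes the treated flasks had the lower mean at day 1 and the higher mean at day 20. With 3 flasks in each condition, single flasks were not examined as outliers by a formal rule.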

How the results depend on the processing

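Counts of called members and medians were recomputed with DESeq2, with limma-voom, with limma on the deposited log2 values, with other scaling and gene filters, with thinned counts, at an adjusted p under 0.05, with the comparison's own libraries alone, with a replicate block and without each library. With 1 library left out, 56 members were called in D20 against D1 each time (27.6% of all tested genes without D20 replicate 2, 42.2% without D1 replicate 2). In D20+TGF-β against D20 it was 47 to 54 (18.9% without D20 replicate 2, 34.6% without D1 replicate 2). In D20+TGF-β against D1+TGF-β it was 48 to 55 (25.6% without D20+TGF-β replicate 1, 42.3% without D1 replicate 2). In D1+TGF-β against D1 it was 0 to 1 (7.74% without D1+TGF-β replicate 1, 19.8% without D1 replicate 2). The median there ran from -0.20 to 0.0977. In the difference of the responses it was 27 to 45 (5.91% without D20 replicate 3, 10.1% without D1 replicate 1). Changes in these counts cannot be told apart from general changes in the genes called. In D1+TGF-β against D1, 11 members were called with the 48 lanes taken as samples in limma-voom (10 lower, 1 higher), which counts lanes of one RNA as replicates and called 41.5% of all tested genes. In the same comparison 6 were called (5 higher, 1 lower) without D1 replicate 2 and D20+TGF-β replicate 3, an alternative chosen after seeing the data, 1 was called higher without D1 replicate 2 alone, and the median turned from -0.09 to 0.0964 and 0.0977. The cause was not tested. Without D20 replicate 3 the difference of the responses was called in 27 members and in 5.91% of all tested genes, against 10.4% in the main fit. Without both high libraries it was called in 46 members, with a median of 1.16 in place of 1.52, and in 23.9% of all tested genes. The median of D20+TGF-β against D20 was 1.17 without D20+TGF-β replicate 3.

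Same-numbered flasks of different conditions had correlations of their deviations from -0.22 to 0.32, and differently numbered flasks from -0.36 to 0.24. With 3 flasks in each condition, these values cannot decide whether the replicate numbers pair the flasks. The fit with a replicate block called 56 members in D20 against D1, where 34.0% of all tested genes were called. It called 50 in D20+TGF-β against D20 (25.1%) and 53 in D20+TGF-β against D1+TGF-β (32.5%). In D1+TGF-β against D1 it called 1 (11.3%), and in the difference of the responses 40 (8.76%). Of the members called, those that lost the call in at least 1 alternative were 0 of 56 in D20 against D1, 6 of 51 in D20+TGF-β against D20, 6 of 54 in D20+TGF-β against D1+TGF-β, 1 of 1 in D1+TGF-β against D1 and 17 of 43 in the difference of the responses. Depth limited the lowest members, such as AURKB with 25 to 34 reads per D20 library.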
